A study of Mus musculus with 80 samples.

Results

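The shape and the number of mitochondria were followed through 10 genes, chosen by name from the 23337 genes of the deposited table: Mfn1, Mfn2 and Opa1, which drive fusion, Dnm1l, Fis1 and Mff, which drive fission, and Ppargc1a, Ppargc1b, Tfam and Nrf1, which drive the making of new mitochondria. All 10 had values high enough to be tested in every experiment. Mitochondria fuse and divide continually: mitofusins join the outer membranes, Opa1 joins the inner membranes and holds the cristae in shape, and the dynamin-related protein encoded by Dnm1l, recruited by the receptors Mff and Fis1, cuts the organelle. New mitochondria need nuclear genes that the coactivators Ppargc1a and Ppargc1b switch on, together with the nuclear respiratory factor Nrf1, and Tfam packs and transcribes the mitochondrial DNA. AgRP neurons are hypothalamic cells that release AgRP and NPY and drive eating, and mitochondrial fusion by the mitofusins is known to matter for their activity.

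The study sequenced RNA from 80 libraries in 20 groups of 2 to 8, all labelled as AgRP neurons of the arcuate nucleus. Sorted GFP cells of NPY::hrGFP mice, which carry a green fluorescent protein under the Npy promoter, came from ad libitum fed mice (6 libraries at ZT2 and 3 at ZT14), after a fast that the labels call effectively 24 hours long (7 and 8), and after that fast with 1 hour of refeeding (5 and 4). ZT counts the hours since lights on. RiboTag immunoprecipitates, the RNA on tagged ribosomes of AGRP-Cre;RiboTag mice, came from ad libitum fed (3 and 4) and fasted mice (5 and 5). A leptin series compared mice labelled WT;BMAL1fx, controls with floxed Bmal1 (Arntl) alleles, with mice labelled AGRP-Cre;BMAL1fx, called knockouts here, after leptin or PBS at ZT2 or ZT14, with 3 libraries a group except 4 for control PBS at ZT2. A further series at ZT5, with no treatment named, had 2 control and 3 knockout libraries. By their labels the controls of both series carry the floxed alleles and no AGRP-Cre, the Agrp promoter drives Cre in the knockouts and in the RiboTag mice, and ages are not given. The labels do not say whether replicate libraries came from separate mice, so the tests see library-to-library scatter only, and that scatter could be technical.

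Values are normalised counts, that is reads per gene divided by a size factor of the library, and the libraries held 5.93 M to 34.0 M reads. Agrp was between 32495 and 338140 in the 33 sorted libraries. In the 17 RiboTag libraries it was 2910 to 1488900, and the ad libitum ones among them, at 4840 to 20738, were below every sorted library. In the RiboTag libraries summed astrocyte markers (11 genes, Gfap and Aqp4 among them) were 17522 to 349060, against a median of 3845 in sorted libraries. Aldoc alone had a sorted median of 3322, while Gfap had medians of 4721 in RiboTag and 11.3 in sorted libraries. Summed oligodendrocyte markers were 10901 to 246930 in RiboTag libraries, against a sorted median of 1263, and endothelial ones 1032 to 45169 against 19.6. RiboTag values therefore need not be levels of AgRP neurons alone. Of the sorted libraries, 4 fasted ones were high in astrocyte markers (fasted ZT2 replicates 3 and 6 and fasted ZT14 replicates 3 and 4, sums of 17342 to 39757). Fasted ZT14 replicate 5 had the lowest mean correlation with its own group, 0.816. Of 11 astrocyte markers 4 were called higher in fasted cells at ZT2 and 5 at ZT14, and none lower, where 37.5% and 18.5% of all genes passed. Their median log2 differences were 2.19 and 3.64, against -0.024 and -0.035 over all genes. After refeeding 5 and 2 of these markers were lower than in fasted cells, where 21.8% and 11.7% of all genes passed. Their sums were 3315 to 6045 in ad libitum and 3035 to 39757 in fasted libraries at ZT2, and 5432 to 5460 and 2268 to 36239 at ZT14. Markers of POMC neurons, the neighbouring arcuate cells that curb eating, were 6 genes, Pomc among them. At ZT2 4 were higher in fasted and 2 in refed than in ad libitum sorted cells, where 37.5% and 17.7% of all genes passed. In fasted RiboTag RNA at ZT2 2 were higher, where 7.89% of all genes passed, and none was at ZT14. Their sums at ZT2 were 2721 to 3938 in ad libitum, 5753 to 48025 in fasted (highest in replicate 3) and 4847 to 13132 in refed sorted libraries. A typical sum was mostly Cartpt and Pcsk1, with medians of 2135 and 1888 over all sorted libraries. Pomc had a median of 382, Anxa2 of 239, and Tac2 and Prdm12 of 0. The lowest Pomc value of a sorted library was 124. Tanycyte and ependymal markers were higher in fasted sorted cells for 1 of 6 genes at ZT2 and 2 of 6 at ZT14. Of all genes 37.5% and 18.5% passed there. The part of these markers in the members' differences was not tested beyond leaving out libraries. In the leptin and ZT5 series the astrocyte genes Aqp4, Gja1, Slc1a3 and Fgfr3 had a median of 0. Others of the list did not: Aldoc had medians of 2874 and 3569, and Aldh1l1 of 160 and 68.2. The summed astrocyte markers had medians of 3426 and 3775 in these series. In all, 12 libraries stand apart and are left out in an alternative of each test they enter: those 5, sorted ad libitum ZT2 replicate 4 (values not on a single step), sorted refed ZT2 replicate 4 (correlation 0.845), RiboTag fasted ZT14 replicate 3 and ZT2 replicate 3 (0.772 and 0.775), RiboTag fasted ZT2 replicate 5 (Agrp far above its group), and 2 of the ZT5 series described with it. The RiboTag libraries among them are all fasted. RiboTag ad libitum ZT2 replicate 1 and ZT14 replicate 3, with astrocyte sums of 166450 and 106910, were kept there. So was RiboTag fasted ZT14 replicate 4, with an astrocyte sum of 69440 and the lowest Agrp of all libraries, 2910.

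The promoters of Opa1 and Tfam are shown because Opa1 is the member that moved most clearly with feeding and Tfam is a classical target of the nuclear respiratory factors. The letters are the 150 bases before the transcription start, 5′ to 3′, from RefSeq's table for build GRCm38.p6. Capitals mark a motif match: in Opa1 (chr16:29579184-29579333, plus strand) the NRF1 motif (GCGCA, any base, then GCGC), and in Tfam (chr10:71238045-71238194, minus strand) the ETS motif CCGGAAG, bound by GABP, also called NRF-2.
Opa1: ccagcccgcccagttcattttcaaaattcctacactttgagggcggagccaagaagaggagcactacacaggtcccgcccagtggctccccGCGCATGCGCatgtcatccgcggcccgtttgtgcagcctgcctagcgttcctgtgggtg
Tfam: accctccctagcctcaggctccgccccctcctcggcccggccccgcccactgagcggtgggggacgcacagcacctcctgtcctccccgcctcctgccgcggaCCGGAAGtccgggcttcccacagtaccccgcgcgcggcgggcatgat
Motifs were searched on both strands in windows from 250 bases before to 50 after each start, in the promoters of 9 members; the table had no entry for Ppargc1b. The NRF1 motif stood 59 bases before the Opa1 start and in no other member, and 4.6% of all 32851 promoters held it. The ETS motif was in Mfn1, Dnm1l, Fis1 and Tfam, and in 8.86% of all promoters. The E-box CACGTG, the site of the clock factor BMAL1 (7.15% of promoters), the CRE TGACGTCA (1.79%) and the ERR motif TCAAGGTCA (0.423%) were in none of the 9. No member held matches of 2 different motifs, and a match describes letters, not a bound site.

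In ad libitum fed sorted cells at ZT2 the members differed widely in level. Per kilobase of exon, Fis1 was highest with a mean normalised count of 3511 ± 634 (SD, n = 6), followed by Dnm1l at 888 ± 61.9, Mff at 546 ± 88.8, Mfn2 at 247 ± 79.0, Opa1 at 208 ± 37.5, Tfam at 148 ± 16.9 and Mfn1 at 113 ± 37.3. The coactivators and Nrf1 were lowest: Ppargc1a at 31.2 ± 6.83, Ppargc1b at 20.6 ± 7.56 and Nrf1 at 17.2 ± 5.96. Mfn2 and Opa1 differed by less than the larger of their SDs, as did Tfam and Mfn1, and Ppargc1b and Nrf1. The exon length is that of all exons of a gene in GENCODE M21, 1.71 kb for Fis1 and 7.88 kb for Opa1, and reads need not come from all of it. For Mff it is 9.76 kb and for Nrf1 10.3 kb, against longest transcripts of 3918 and 4042 bases. The places of Mff and Nrf1 in the order therefore depend on the length used.

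**Figure D1:**
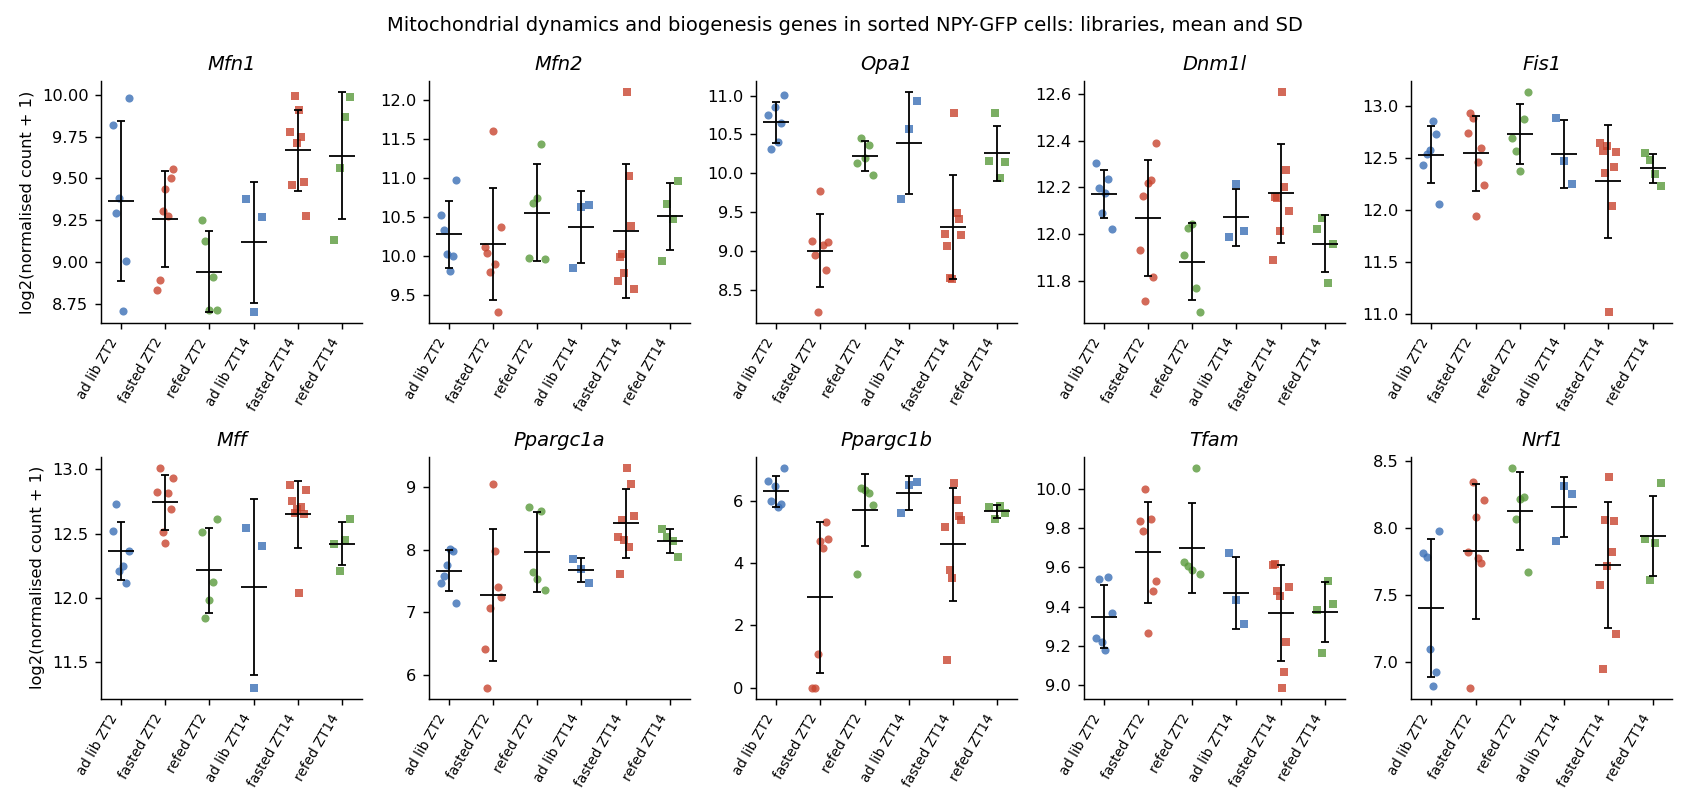
Each panel plots log2(normalised count + 1) of 1 gene in the 33 sorted NPY-GFP libraries (points), by feeding state and time, with the mean (bar) and SD (whiskers). Opa1 is low in the fasted groups at both times, with fasted ZT14 replicate 5 far above its group, and Ppargc1b is low in fasted ZT2 libraries, 2 of which are at 0.

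In sorted cells at ZT2, 2 of the 10 genes, Opa1 and Ppargc1b, were lower after fasting and none was higher (limma adjusted p under 0.05). Of all 14931 genes tested 37.5% passed, and 19.2% passed as lower, so the share of members called is near the background. The median absolute log2 difference of the 10 was 0.35, against 0.70 over all genes. Opa1 (chr16:29579334-29654884, plus strand, mm10) had normalised counts from 1267 to 2051 with a median of 1657 in the 6 ad libitum libraries, and from 296 to 875 with a median of 538 in the 7 fasted ones. All 7 fasted libraries lay below all 6 ad libitum libraries. Opa1 fell by 1.66 ± 0.26 (SE) on the log2 scale, with a limma adjusted p = 4.53e-06. In a bulk library, fewer cells of a type and less RNA per cell cannot be told apart, so a lower value does not say which changed. Without the 12 libraries that stand apart, the Opa1 difference was -1.50, and without the 4 high in astrocyte markers it was -1.45.

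Ppargc1b (gene on chromosome 18) was 54.1 to 132 with a median of 75.4 in the ad libitum libraries, and 0, 0, 1.12, 21.2, 25.3, 26.4 and 38.5 in the fasted ones. No fasted library reached the lowest ad libitum value. In the 2 libraries at 0, a floor of 3 reads stands for 3.29 and 3.34 normalised counts, which covers counting error only. Ppargc1b fell by 3.40 ± 0.82 on the log2(value + 1) scale (limma adjusted p = 0.00124). That size depends on the constant added before taking the log: it was -2.04 with 10 added in place of 1, and -2.45 in the quasi-likelihood test of edgeR on reads. Without the libraries that stand apart it was -3.62, and without those high in astrocyte markers -3.51.

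Among the other members, the fission receptor Mff (chr1:82724890-82752394, plus strand) was 4427 to 6779 in ad libitum and 5508 to 8257 in fasted libraries at ZT2, a difference of 0.38 ± 0.17 (limma adjusted p = 0.0811). Tfam (chr10:71225464-71238280, minus strand) differed by 0.33 ± 0.15 (limma adjusted p = 0.0767), with 4 of 7 fasted libraries above every ad libitum library. Neither passed. The mitofusins Mfn1 and Mfn2 differed by -0.11 and -0.12, Dnm1l by -0.10, Fis1 by 0.01, Ppargc1a by -0.38 and Nrf1 by 0.42, none of them called. The 95% interval for Dnm1l, the fission GTPase, ran from -0.36 to 0.15 and for Fis1 from -0.41 to 0.43.

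At ZT14 Opa1 again fell, and it was the 1 member of 10 called, where 18.5% of all genes passed and 8.81% passed as lower. The ad libitum libraries held 811, 1523 and 1958 and the 8 fasted libraries 397 to 1754 with a median of 592. The highest fasted value came from fasted ZT14 replicate 5, and the other 7 lay below all 3 ad libitum libraries. Opa1 fell by 1.09 ± 0.31 (limma adjusted p = 0.013). This call rested on the ad libitum libraries: with replicate 2 of the ad libitum group left out the limma adjusted p was 0.0869, and with replicate 3 left out 0.142. With only the 2 compared groups in the fit it was 0.0877, and without the libraries that stand apart the difference was -1.11 (limma adjusted p = 0.00119), and without those high in astrocyte markers -0.86 (0.0395).

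Ppargc1b at ZT14 was 47.9, 90.8 and 96.4 in ad libitum libraries and 0.854 to 94.0 with a median of 37.6 in fasted ones, a difference of -1.64 ± 0.99 that did not pass (limma adjusted p = 0.26). Mff was 2524, 5432 and 5975 against 4202 to 7522, with 7 of 8 fasted libraries above all ad libitum ones (0.57 ± 0.21, limma adjusted p = 0.0562). Mfn1, an outer membrane fusion GTPase (chr3:32529465-32579239, plus strand), differed by 0.55 ± 0.24 (limma adjusted p = 0.0999). Ppargc1a (chr5:51454250-51567726, minus strand) was 176, 206 and 230 against 194 to 630, also with 7 of 8 fasted libraries above, and its difference of 0.75 did not pass (limma adjusted p = 0.219). The difference between the fasting effects at ZT14 and ZT2 was tested as an interaction and was called for no gene (0% of 14931), so no member was shown to respond differently by time. Of the 10, 3 had an unadjusted p under 0.05 in that test (Mfn1, Ppargc1a and Nrf1), as did 647 of all 14931 genes, and edgeR called none.

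**Figure D2:**
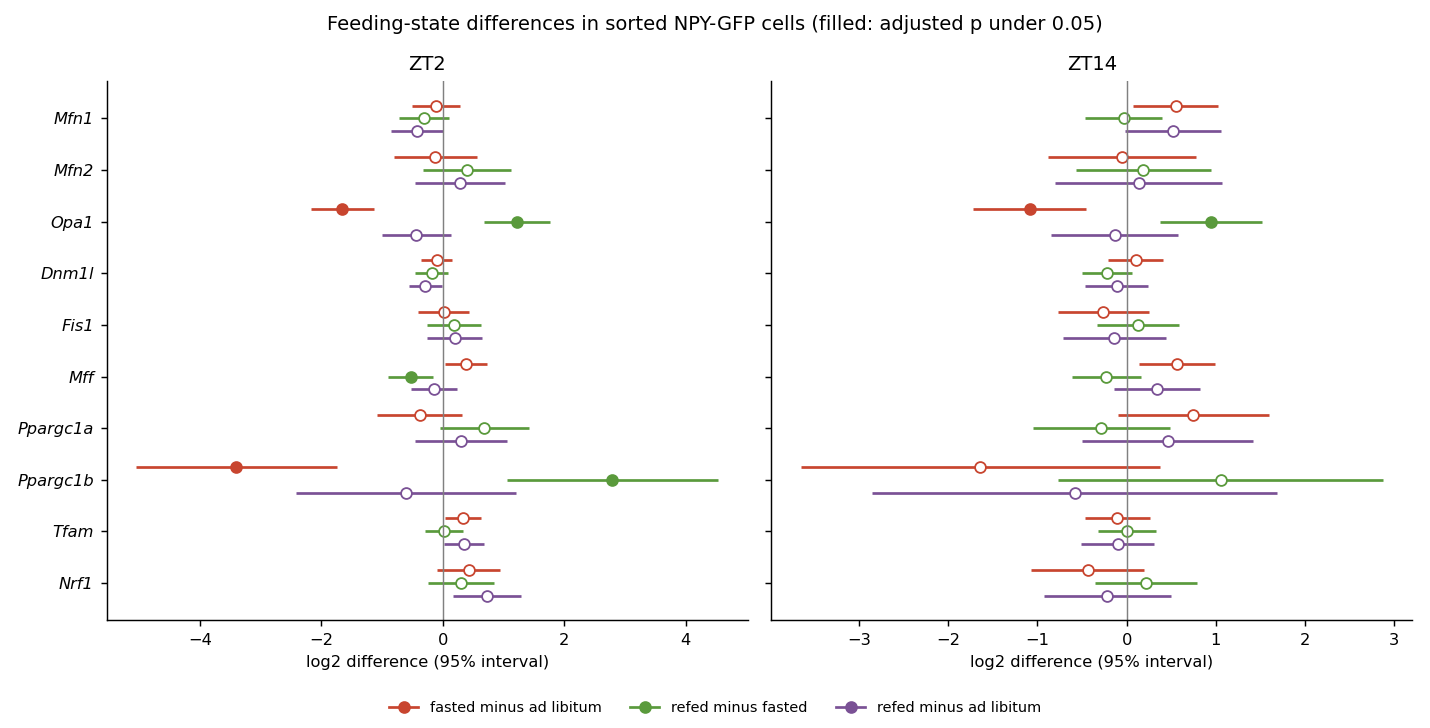
Log2 differences between feeding states at ZT2 (left) and ZT14 (right) with 95% intervals from limma, for the 10 genes. Filled points passed an adjusted p of 0.05. Opa1 was lower in fasted than in ad libitum cells (-1.66 and -1.09) and higher in refed than in fasted cells (1.22 and 0.95). At ZT2 Ppargc1b, in the same directions, and Mff, lower in refed than in fasted cells, also passed.

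Refeeding for 1 hour after the fast changed 3 members at ZT2, where 21.8% of all genes passed, 10.8% as higher and 11.1% as lower. Opa1 was 1117, 1404, 1174, 1315 and 1004 in the 5 refed libraries, all above the highest fasted value of 875, and rose by 1.22 ± 0.27 (limma adjusted p = 0.00101). Ppargc1b was 11.7, 83.5, 80.6, 74.3 and 57.0, with 4 of 5 refed libraries above every fasted one, and rose by 2.79 ± 0.86 (limma adjusted p = 0.0168). Mff was 5831, 3681, 4051, 4468 and 6252, with 3 of 5 below every fasted library, and fell by 0.53 ± 0.18 (limma adjusted p = 0.0332). The Ppargc1b call was lost in edgeR's test (adjusted p = 0.0717) and with only the compared groups (limma adjusted p = 0.0845). The Mff call was lost in 10 of 21 alternatives, among them edgeR's test (adjusted p = 0.0615), the fit without the libraries that stand apart (0.0513) and the fit without 1 library at a time for 7 libraries.

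At ZT14 1 member, Opa1, was higher after refeeding, where 11.7% of all genes passed and 6.36% passed as higher. The refed libraries held 1142, 1747, 984 and 1136, and 1 fasted library, replicate 5 at 1754, was above all of them. Opa1 rose by 0.95 ± 0.28 (limma adjusted p = 0.0218). The call did not hold in edgeR's test (adjusted p = 0.0592), with only the compared groups (limma adjusted p = 0.088), without refed ZT14 replicate 2 (0.135) or without the libraries high in astrocyte markers (0.0867), while without those that stand apart it held (0.00246). The other 9 members differed by -0.29 to 1.06 and did not pass. The comparisons of refed and of ad libitum with fasted cells share the fasted libraries, so they are not independent of each other.

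Set against ad libitum cells, no member was called in refed cells at ZT2, where 17.7% of all genes passed, or at ZT14, where 0.375% did. At ZT2 3 members had an unadjusted p under 0.05 and at ZT14 none, and edgeR called none at either time. Over all 14931 genes, 4701 had such a p at ZT2 and 960 at ZT14. Opa1 in refed cells at ZT2 differed from ad libitum by -0.44 ± 0.28 (limma adjusted p = 0.292), and 3 of 5 refed libraries lay below every ad libitum library. Nrf1, the transcription factor of nuclear genes for respiration, was 111 to 251 in ad libitum and 203 to 349 in refed libraries at ZT2 (0.73 ± 0.28, limma adjusted p = 0.0653). Tfam was 579 to 748 against 757 to 1103, groups that do not overlap (0.35 ± 0.16, limma adjusted p = 0.126). At ZT14 Ppargc1a was 176 to 230 against 234 to 320, also without overlap, and did not pass either (0.46 ± 0.47, limma adjusted p = 1).

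Opa1 values moved with the transcript length trend of a library. That trend is the Spearman correlation, across 11146 genes, between transcript length and the log2 difference of the library from the mean of the sorted experiment, so a positive value means that long transcripts read high. It was 0.07 to 0.52 in ad libitum ZT2, -0.45 to 0.05 in fasted ZT2 and -0.15 to 0.36 in refed ZT2 libraries. At ZT14 it was -0.05 to 0.41, -0.46 to 0.46 and 0.18 to 0.44 in the same order. Fasted ZT14 replicate 5, with the highest fasted Opa1, had 0.46, and fasted ZT2 replicate 4, with the highest Opa1 at ZT2 among fasted libraries (875), had 0.05. Ad libitum ZT14 replicate 1, with the lowest ad libitum Opa1 (811), had -0.05. With each library corrected for transcript length and GC content, Opa1 at ZT2 was -0.93 in fasted cells (limma adjusted p = 0.00034) and 0.62 after refeeding (0.0265). At ZT14 it was -0.62 (limma adjusted p = 0.06) and 0.52 (0.117), so both calls at ZT14 were lost.

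**Figure D3:**
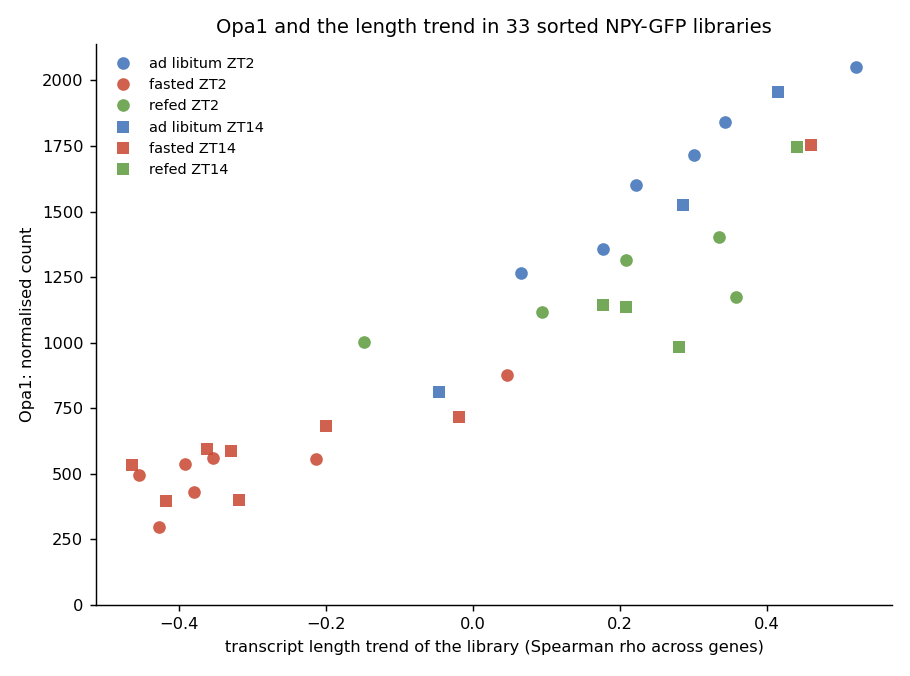
Opa1 normalised count (vertical) against the transcript length trend of the library (horizontal, Spearman rho across genes) in the 33 sorted libraries, coloured by feeding state, with circles for ZT2 and squares for ZT14. Low Opa1 and negative trends go together, and the fasted ZT14 library at 1754 has a trend of 0.46.

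For Ppargc1b, which has a shorter transcript than Opa1, the corrected difference at ZT2 was -3.77 (limma adjusted p = 0.000266) and 3.16 after refeeding (0.00473). The correction also moved other members across the threshold. Tfam was called at ZT2 (0.43, limma adjusted p = 0.0263), as was Fis1 (-0.22, 0.0417), whose sign turned. At ZT14 Mfn1 (0.68, limma adjusted p = 0.0342), Fis1 (-0.32, 0.0267) and Ppargc1a (1.26, 0.0242) were called after it. A length trend and fasting went together in these libraries, and their parts in the Opa1 difference cannot be told apart.

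The fasted libraries were also high in Cebpb, a stress-responsive transcription factor, at 170 to 1385 in the 15 fasted sorted libraries and 0 to 11.3 in the 18 others. The 5 ZT5 libraries, for which no fast is named, held 433 to 630 of it, and the 25 of the leptin series 1.66 to 17.1. Opa1 was 365 to 642 in the ZT5 libraries, within the range of fasted sorted cells, against 902 to 1711 in the leptin series. Compared with control PBS libraries at ZT2, the ZT5 controls differed in Opa1 by -1.90, in Mfn2 by -1.12, in Ppargc1b by -0.99 and in Fis1 by 0.66 on the log2 scale, with a median of -0.18 over all genes; this sets different times and series side by side and was not tested. In the fasted RiboTag libraries Cebpb was 42.5 to 1565, and in the ad libitum ones 1.29 to 5.11. High Cebpb did not always go with low Opa1: RiboTag fasted ZT14 replicate 2, with Opa1 at 1559, held 1565 of Cebpb. Sorted fasted ZT14 replicate 5, with Opa1 at 1754, held 170, the lowest Cebpb of the 15 fasted sorted libraries. In the fasted groups the fast and this profile cannot be told apart.

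**Figure D4:**
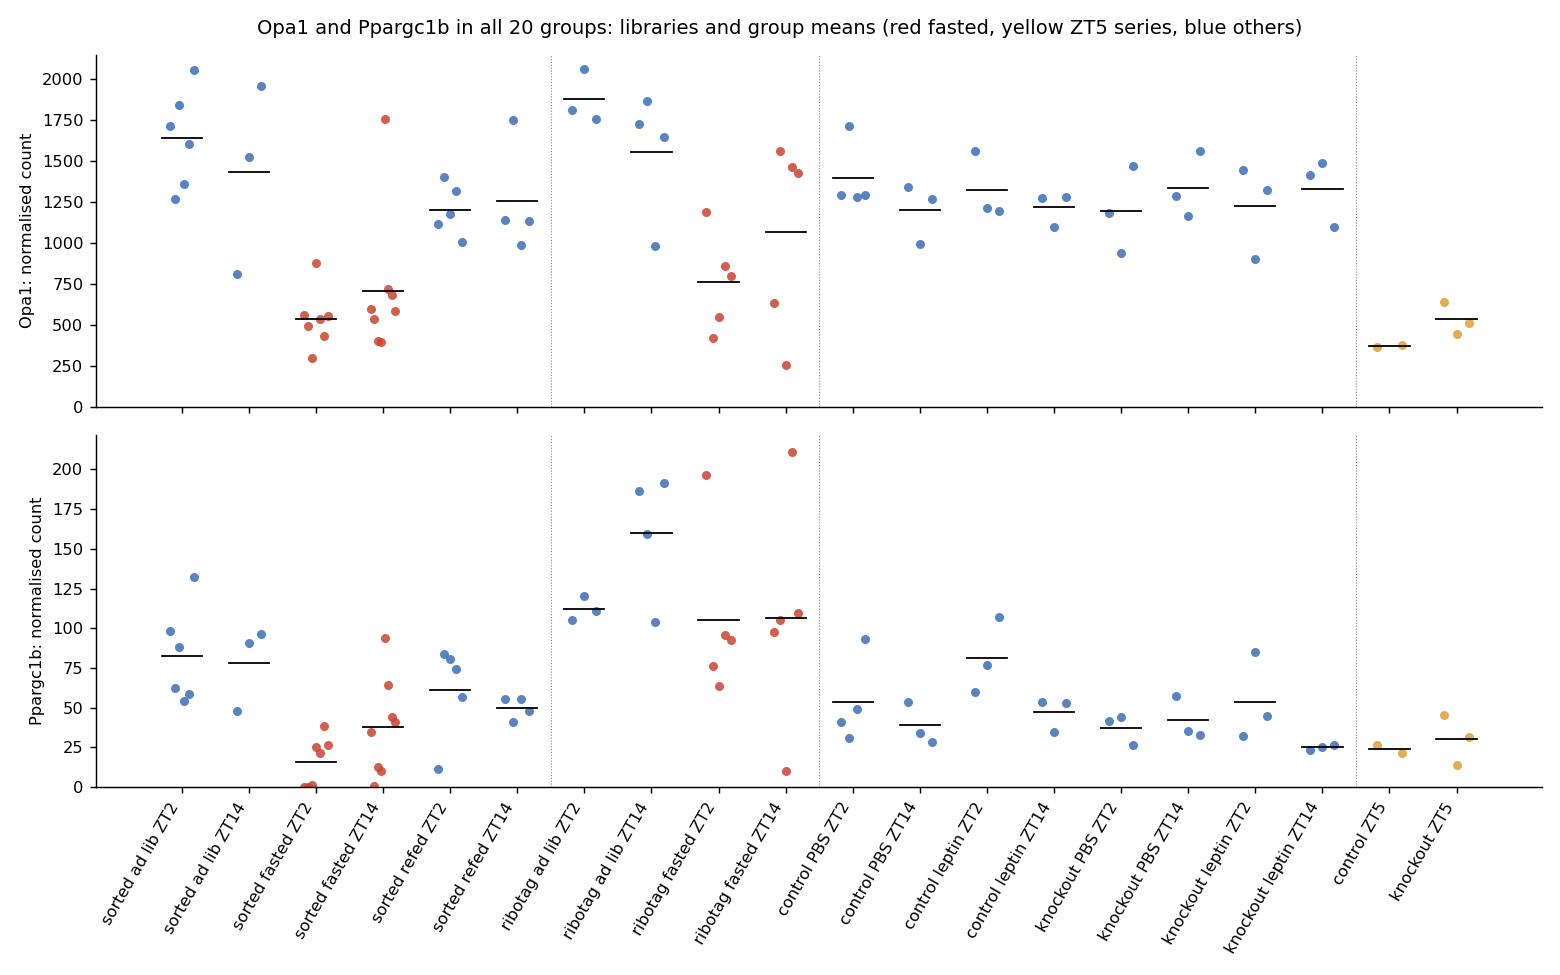
Normalised counts of Opa1 (top) and Ppargc1b (bottom) in every library (points) and group means (bars) of all 20 groups; red marks fasted groups, yellow the ZT5 series and blue the others. Opa1 means run from 371 in ZT5 controls to 1875 in RiboTag ad libitum ZT2, and the 8 leptin-series groups lie between 1197 and 1394.

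Over all 20 groups, mean Opa1 was lowest in ZT5 controls (371 ± 8.10, SD, n = 2), ZT5 knockouts (534 ± 99.2, n = 3), sorted fasted ZT2 (536 ± 176, n = 7), sorted fasted ZT14 (708 ± 438, n = 8) and RiboTag fasted ZT2 (763 ± 298, n = 5). These 5 were followed by RiboTag fasted ZT14 (1067 ± 586, n = 5). The leptin-series groups and the sorted refed groups came next with means of 1197 to 1394, and then sorted ad libitum ZT14 (1431 ± 579) and RiboTag ad libitum ZT14 (1555 ± 392). Sorted ad libitum ZT2 (1639 ± 296) and RiboTag ad libitum ZT2 (1875 ± 160) were highest. Neighbours in this order differed by less than the larger of their SDs, except the 2 ZT5 groups, whose separation rests on labels that 1 library of each group goes against by Hsd11b2 (described with that series). Ppargc1b ran from 16.1 ± 15.6 in sorted fasted ZT2 to 160 ± 40.0 in RiboTag ad libitum ZT14, and all 4 RiboTag means (105 to 160) were above every other group mean. RiboTag RNA also held markers of other cell types, so these means need not be those of AgRP neurons alone.

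In RiboTag RNA fasting called no member at ZT2, where 7.89% of 15444 genes passed, or at ZT14, where 5.29% did, and edgeR called none. At ZT2 4 members had an unadjusted p under 0.05 (Mfn1, Mfn2, Opa1 and Nrf1), and at ZT14 2 (Mfn1 and Nrf1), all lower. Over all 15444 genes, 4242 had such a p at ZT2 and 2966 at ZT14. Opa1 at ZT2 was 1812, 2058 and 1757 in ad libitum and 1189, 422, 546, 861 and 795 in fasted libraries, without overlap (-1.39 ± 0.49, limma adjusted p = 0.0879). Without the libraries that stand apart (fasted ZT2 replicates 3 and 5) it fell by 1.31 and was called (limma adjusted p = 0.042), and without fasted ZT2 replicate 1 both Opa1 (0.048) and Mfn1 (0.0319) were. Mfn1 was 1722, 1066 and 917 against 826, 757, 517, 541 and 276 (-1.12 ± 0.36, limma adjusted p = 0.065), also without overlap. The 1722 came from ad libitum ZT2 replicate 1, which had 166450 summed astrocyte markers and Agrp at 4840. Opa1, Mfn1, Dnm1l and Nrf1, 4 of the 10 members, had no overlap at ZT2, with all 5 fasted libraries below all 3 ad libitum ones. The share of all genes without overlap was not counted, so this count is not a result about the members. The median difference over all genes was -0.185 here. The length trend, taken from the mean of the RiboTag experiment, was also without overlap at ZT2. It was 0.26 to 0.45 in ad libitum and -0.56 to 0.22 in fasted libraries. At ZT14 it was 0.25 to 0.52 and -0.52 to 0.44. Length trend and fasting therefore went together at ZT2 in RiboTag RNA too, and their parts cannot be told apart. Dnm1l was 3535, 4124 and 4590 against 3206, 2715, 1812, 3388 and 3270 (-0.53 ± 0.27, limma adjusted p = 0.215), and Nrf1 454, 454 and 498 against 418, 354, 174, 306 and 265 (-0.68 ± 0.30, 0.155).

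At ZT14 Opa1 in RiboTag RNA was 1727, 1866, 984 and 1643 against 633, 1559, 256, 1461 and 1426, and the groups overlapped (-0.78 ± 0.45, limma adjusted p = 0.369). Mfn1 was 1109 to 1663 against 397 to 1019 and Nrf1 446 to 709 against 260 to 443, both without overlap and not called (limma adjusted p = 0.137 and 0.167). The 1663 and the 709 came from ad libitum ZT14 replicate 3, which had 106910 summed astrocyte markers. The 1019, the highest fasted Mfn1, came from fasted ZT14 replicate 4, which had 69440 of them and Agrp at 2910. Ppargc1b at ZT2 was 105, 120 and 111 against 197, 76.0, 63.9, 96.0 and 92.7 and differed by -0.21 (95% interval -1.65 to 1.24). Fis1 was 49923 in fasted ZT2 replicate 3 and 10391 in replicate 5, against 2794 to 4086 in the other 3 fasted libraries. Both stand apart, replicate 3 with 349060 summed astrocyte markers and replicate 5 with the highest Agrp and Npy of its group. Their normalised counts over all genes summed to 42.5 M and 22.2 M, against 12.3 M to 16.2 M in the other RiboTag libraries. The fasting effects at ZT14 and ZT2 were called as different for no gene in RiboTag RNA (0%), with no member under an unadjusted p of 0.05 and none called by edgeR. Simulated 4-fold changes were recovered in 28% of genes for fasting at ZT2 in RiboTag RNA, against 82% for fasting at ZT2 in sorted cells. Only 100 genes were changed by 4-fold and 100 by 2-fold, so these rates need not hold for the tests reported.

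Time of day was followed within each feeding state, from ZT2 to ZT14, and called no member. All genes called were 0% in ad libitum, 0.281% in fasted and 0.0268% in refed sorted cells, and 0% in ad libitum and fasted RiboTag RNA. Over all 14931 genes, 413, 1474 and 1138 had an unadjusted p under 0.05 in sorted ad libitum, fasted and refed cells. Of the 10 members 1, 4 and 1 did, none did in RiboTag RNA, and edgeR called none. The smallest p of these was that of Ppargc1a in fasted cells, 54.8 to 526.3 with a median of 150.9 at ZT2 and 194 to 630 with a median of 325 at ZT14, groups that overlap (1.14 ± 0.32, limma adjusted p = 0.135). Without fasted ZT2 replicate 4, the library at 526.3, Ppargc1a was 1.43 higher at ZT14 and was called (limma adjusted p = 0.016). Without the same library Ppargc1a was also called for refeeding at ZT2 (0.98, limma adjusted p = 0.0256). Mfn1 in refed cells was 418 to 609 at ZT2 and 560 to 1014 at ZT14 (0.69 ± 0.23, limma adjusted p = 0.422). Tfam in all 4 refed libraries at ZT14 was below the 5 at ZT2, and was not called.

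In the leptin series the targeted gene Arntl was 291 to 1125 in the 4 control and 246 to 526.3 in the 3 knockout PBS libraries at ZT2, and 259 to 422 against 224 to 395 at ZT14, so the groups overlapped. After leptin it was 682, 832 and 1211 against 436, 338 and 259 at ZT2, and 353, 223 and 277 against 262, 108 and 146 at ZT14. At ZT5 it was 750 and 390 in the libraries labelled control and 540, 470 and 491 in those labelled knockout. The counts cover the whole gene, and exons outside the floxed part would still be counted. Hsd11b2, named after its values were seen, was 2092 to 3749 in the 12 libraries of the leptin series labelled knockout and 0 to 19.7 in the 13 labelled control. In the ZT5 series it was 4628 and 0 in the libraries labelled control and 3588, 4573 and 11.2 in those labelled knockout, so 1 library of each label goes against that pattern. Hsd11b2 was also 1048 to 3971 in the 17 RiboTag libraries, whose labels name AGRP-Cre but not BMAL1fx. In the 33 sorted libraries it was 0 to 23.3. High values were therefore not particular to libraries labelled knockout, and what sets them was not tested.

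Between the libraries labelled knockout and control no member was called. Of all 13942 genes 0.0215% passed at ZT2 and 0.00717% at ZT14 after PBS, and 0.00717% and 0.0215% after leptin. Of the 10 members, 1 had an unadjusted p under 0.05 after PBS at ZT14 (Mff) and 1 after leptin at ZT14 (Mfn1), none did at ZT2, and edgeR called none. Over all 13942 genes, 1059 had such a p after PBS and 658 after leptin at ZT14. Opa1 after PBS at ZT2 was 1293, 1711, 1282 and 1290 in controls and 1182, 939 and 1471 in knockouts, which overlapped (-0.23, 95% interval -0.64 to 0.18). At ZT14 it was 1339, 996 and 1268 against 1285, 1166 and 1560 (0.16, 95% interval -0.28 to 0.60). Mff after PBS at ZT14 was 4451, 7183 and 6331 against 6033, 1412 and 4471, with the low value in 1 knockout library (-0.80 ± 0.36, limma adjusted p = 0.614). Nrf1 there was 200, 182 and 303 against 319, 509 and 333, without overlap and not called (0.76 ± 0.38, limma adjusted p = 0.669). After leptin at ZT14 Ppargc1a was 292, 251 and 277 in controls and 240, 188 and 245 in knockouts (-0.29 ± 0.38, limma adjusted p = 1). Ppargc1b there was 53.7, 34.5 and 53.0 against 23.4, 25.3 and 26.5 (-0.86 ± 0.43, limma adjusted p = 1). Both were without overlap, lower in the knockouts, and not called. How many of all genes were without overlap was not counted.

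At ZT5 no gene of 12940 was called between the libraries labelled knockout and control (0%), and no member had an unadjusted p under 0.05 or an edgeR call. Opa1 was 642, 447 and 512 against 365 and 377, without overlap (0.51, 95% interval -0.10 to 1.11, limma adjusted p = 0.617). Ppargc1a was 146, 152 and 176 against 54.6 and 105, also without overlap (1.05, 95% interval -0.04 to 2.14, limma adjusted p = 0.575). With 1 library of each label against the Hsd11b2 pattern, the direction of these differences is that of the labels only.

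Leptin called no member either. Of all genes 0.0215% passed in controls and 0.423% in knockouts at ZT2, and 0% and 0.0861% at ZT14. No member had an unadjusted p under 0.05 in any of these 4 comparisons, and edgeR called none. Opa1 was 1559, 1210 and 1195 in leptin-treated controls at ZT2 against the PBS values above (-0.08, 95% interval -0.49 to 0.33), and in knockouts the difference was 0.03 (-0.41 to 0.47). At ZT14 it was 0.03 (-0.41 to 0.47) in controls and -0.01 in knockouts. Ppargc1b at ZT14 in knockouts was 57.6, 35.2 and 33.1 after PBS and 23.4, 25.3 and 26.5 after leptin, without overlap and not called (-0.68 ± 0.43, limma adjusted p = 1). In the same groups Ppargc1a was 149, 158 and 125 against 240, 188 and 245 (0.63 ± 0.38, limma adjusted p = 1), without overlap in the other direction. The other leptin comparisons without overlap, none called, were Nrf1 in knockouts and Tfam in controls at ZT14 and Mfn2 in knockouts at ZT2, all lower after leptin. The share of all genes without overlap was not counted here either. The leptin effect was called as different between genotypes for no gene by the interaction test (0% at both times), and the time effect after PBS for none (0%), with no member under an unadjusted p of 0.05 and none called by edgeR. From ZT2 to ZT14 after PBS 0.00717% of genes were called in controls and 0% in knockouts, and no member (none under an unadjusted p of 0.05, none by edgeR). Nrf1 in knockouts was higher in all 3 PBS libraries at ZT14 (319 to 509) than at ZT2 (210 to 311) and was not called.

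**Figure D5:**
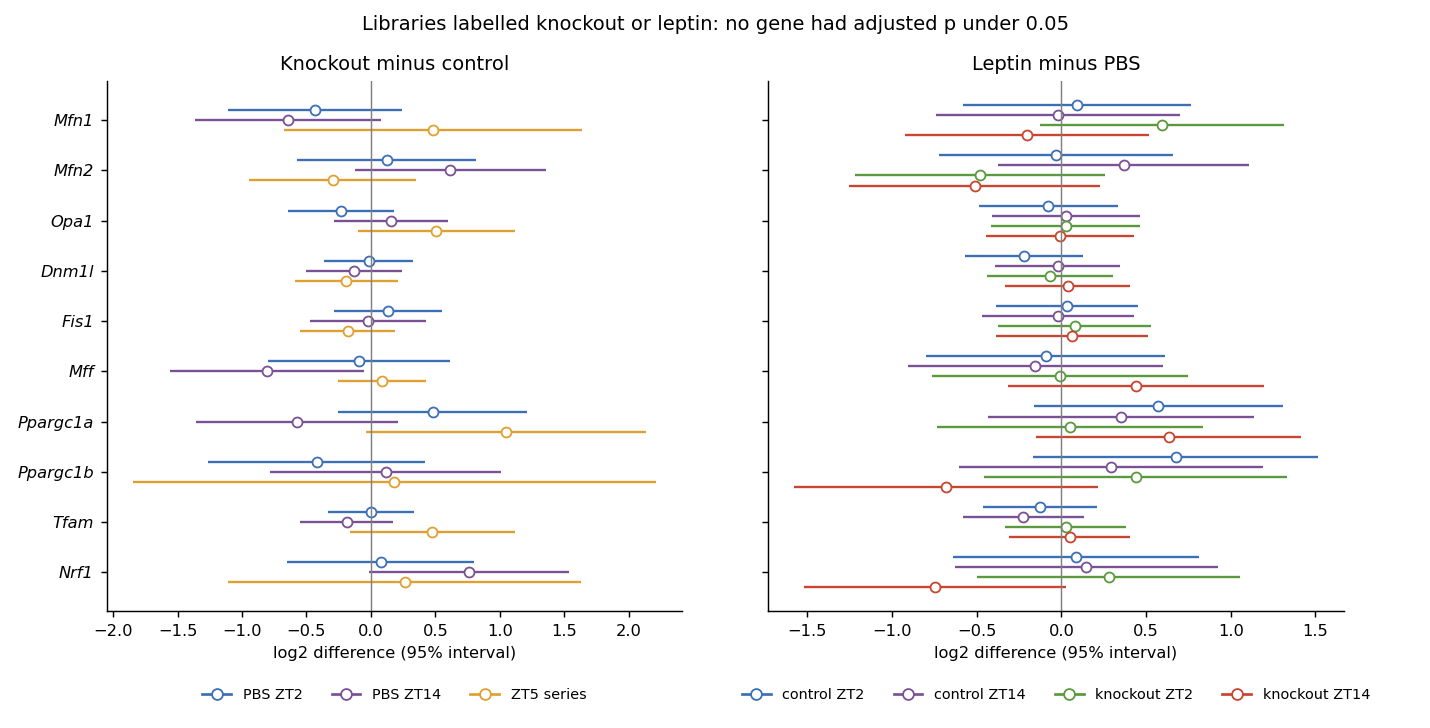
Log2 differences with 95% limma intervals for the 10 genes, knockout minus control (left: PBS at ZT2 and ZT14, and the ZT5 series by label) and leptin minus PBS (right: by genotype and time). No point passed an adjusted p of 0.05, and the Opa1 intervals of all these comparisons include 0.

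Genes that work with the members were read from 4 lists chosen by function. Of 24 tested accessory genes of fusion, fission and the inner membrane, 8 were higher and 4 lower in fasted than ad libitum sorted cells at ZT2, where 37.5% of all genes passed, with a median difference of -0.06 against -0.02 over all genes. Yme1l1, a protease that cuts OPA1, fell by 1.24 ± 0.15, from 4333 ± 689 to 1857 ± 438 (limma adjusted p = 7.92e-08), and rose by 1.15 ± 0.16 on refeeding (1.52e-06). Phb2, an inner membrane prohibitin, rose by 1.43 ± 0.19 with fasting (limma adjusted p = 3.42e-07), and Stoml2, a stomatin-like inner membrane protein, by 1.00 ± 0.18 (3.24e-05). Fam54b, now called Mtfr1l, a regulator of fission, rose by 1.19 ± 0.15 (limma adjusted p = 1.22e-07). At ZT14, where 18.5% of all genes passed, 4 were higher and 2 lower, among them Yme1l1 (-0.95 ± 0.18, limma adjusted p = 0.00036) and Phb2 (0.73 ± 0.23, 0.0231). Yme1l1 fell in RiboTag RNA at ZT2 as well (-1.34 ± 0.33, limma adjusted p = 0.0192). Spg7 and Afg3l2, which form an inner membrane protease, were higher in fasted cells at ZT14 (1.05 ± 0.31 and 1.38 ± 0.32, limma adjusted p = 0.0152 and 0.00237).

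Of 14 mitophagy genes, which mark and remove damaged mitochondria, 5 were higher and 2 lower in fasted cells at ZT2, with a median of 0.24 against -0.02 over all genes, of which 37.5% passed. The kinase gene Pink1 rose from 762 ± 337 to 1988 ± 556 (1.44 ± 0.34, limma adjusted p = 0.000892) and fell to 387 ± 297 on refeeding (-2.62 ± 0.35, 1.08e-06). At ZT14, where 18.5% of all genes passed, Pink1 was the 1 of 14 called and rose by 1.16 ± 0.41 (limma adjusted p = 0.0438). Sqstm1, an autophagy adaptor, rose at ZT2 by 1.06 ± 0.18 (limma adjusted p = 2.1e-05). Of 12 transport genes, 2 were higher and 5 lower at ZT2 (median -0.34), where 37.5% of all genes passed and 19.2% passed as lower: the kinesin motor genes Kif1b, Kif5a and Kif5c differed by -1.40, -1.86 and -1.04 (limma adjusted p = 1.49e-05, 1.71e-05 and 0.00133). Rhot1, which links mitochondria to motors, rose by 0.67 (limma adjusted p = 0.00102). At ZT14 2 transport genes were higher, Rhot1 (0.79 ± 0.19, limma adjusted p = 0.00341) and Armcx3 (0.86 ± 0.23, 0.00778), and 2 lower, Kif1b (-0.99 ± 0.28, 0.0128) and Kif5a (-1.21 ± 0.38, 0.0238), against 18.5% of all genes called.

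Of 24 biogenesis partners 2 were higher and 2 lower at ZT2, with a median of -0.05, a smaller share than the 37.5% of all genes called. Gabpb1, a subunit of GABP, rose by 1.03 ± 0.21 (limma adjusted p = 0.000247), and Tfb1m, a mitochondrial ribosomal RNA methyltransferase, fell by 1.57 ± 0.49 (0.0115). Esrrg, a nuclear receptor partner of the coactivators, fell at ZT14 by 2.91 ± 0.85 (limma adjusted p = 0.0145), and 3 partners rose there: Ncor1, a corepressor (0.79 ± 0.23, 0.0153), Top1mt, the mitochondrial topoisomerase (0.98 ± 0.30, 0.0209), and Lonp1, a matrix protease (0.96 ± 0.33, 0.0401). These are 4 of 24, where 18.5% of all genes passed. In RiboTag RNA at ZT14, where 5.29% passed, 3 of 25 partners rose and none fell: Ncor1 (1.53 ± 0.27, limma adjusted p = 0.00141), the deacetylase gene Sirt1 (2.26 ± 0.52, 0.013) and the nuclear receptor gene Esrra (1.78 ± 0.44, 0.0193). The list genes also stand on libraries that differ in length trend and astrocyte markers, and the part of these in their differences was not tested. No gene of the 4 lists passed in the leptin or ZT5 series or in refed against ad libitum cells at ZT14.

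Across the 33 sorted libraries, the ranks of some members went together and those of others went apart. Opa1 and Ppargc1b had a Spearman rho of 0.85, Opa1 and Mff -0.75, Mff and Ppargc1b -0.66, Mfn2 and Fis1 -0.63, and Fis1 and Tfam 0.60; the points share library, feeding group and length trend, and no test was made. Among 9038 other genes, the ranks most like those of Opa1 were of Cyld (0.96), Nedd4 (0.96) and Grlf1 (0.96), those most like Ppargc1b of Depdc5, Ppp6r3 and Hpcal4 (0.87, 0.87 and 0.86), and those most like Fis1 of Rnf7, Btf3 and Ndufc2 (0.94, 0.92 and 0.92). Mfn2 was nearest to AU040320 (0.91), Mff to Tspan3 (0.87), Tfam to Srsf3 (0.82), Nrf1 to Unc45a (0.79), Ppargc1a to Spred1 (0.76), Dnm1l to Neto2 (0.74) and Mfn1 to Cog1 (0.70).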

How the data were processed

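RNA was measured in 80 libraries, amplified with a SMART-seq v4 kit and prepared with Nextera XT, per the labels' protocols. The deposited table holds signal values made by the authors: normalised counts per gene and library. The submitters' processing notes name build mm10, R 3.5.1, STAR 2.5.1, DESeq2, DESeq, Subread and featureCounts, with no role or order; the strand setting is not given in the sources used here, so reads of Dnm1l and Mff cannot be told apart from those of the antisense genes that overlap their exons by 243 and 195 bases. In 79 libraries the values were whole multiples of 1 step (at least 99.99% within 0.1 of a whole number), which gave the reads per library; sorted ad libitum ZT2 replicate 4 was not recovered and was left out of edgeR's test.

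Each of the 4 experiments was fitted with all its groups by limma 3.58.1 (R 4.3.3) on log2(value + 1), for genes that reached 10 in a number of libraries equal to the smallest group. The Benjamini-Hochberg adjustment ran over the whole table of tested genes, with 0.05 as the threshold; a gene is called when it passed. Differences are on the log2(value + 1) scale, where those of low genes depend on the constant added and on libraries near 0. Overlap between groups was read for the members only, so the share of all genes without overlap is not known. Small groups can be without overlap by scatter alone. Alternatives were 10 added in place of 1, no filter, TMM, edgeR 4.0.16 (quasi-likelihood) on the recovered reads, a replicate block, only the compared groups, a length and GC correction (splines with 4 df on GENCODE M21 lengths), and leaving out each library. Leaving out libraries that stand apart, or are high in astrocyte markers, was added after seeing the data. Of the symbols, 20929 matched GENCODE directly, 1918 by an older name, and 490 did not. The script was tested on simulated data. The members may be named in every comparison, with up to 4 called genes of smallest p from each pathway list (up to 2 where none is called) and the 3 genes ranked most like each member. The members and lists were chosen with earlier results of these data known.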

Additional observations from a re-analysis of the deposited data

Results flagged for a closer look

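Of 90 sets of 1 member in 1 group of 4 to 10 libraries, 10 held a library far from the others in its group, by the gap to its neighbour relative to the range of the group. The limits used give about 1 in 20 for normally distributed values in independent sets. These values are unlogged counts and the sets share libraries, so 10 of 90 cannot be set against that rate. Fasted ZT14 replicate 5 of the sorted cells had 3 of them: Mfn2 at 4376 against 2076 in the next library, Opa1 at 1754 against 716, and Mff lowest at 4202 against 6421. Fasted ZT2 replicate 4 had 2: Mfn2 at 3091 against 1316 and Ppargc1a at 526.3 against 251. Refed ZT2 replicate 4 had Tfam at 1103 against 791. In RiboTag RNA, Fis1 was 49923 in fasted ZT2 replicate 3 against 10391 and 8096 in fasted ZT14 replicate 3 against 3676, and Ppargc1b was 197 in fasted ZT2 replicate 1 against 96.0. In control PBS ZT2 replicate 2, Opa1 was 1711 against 1293.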

How the results depend on the processing

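The Opa1 and Ppargc1b differences with fasting at ZT2 kept their direction and call in all 22 alternatives (limma or edgeR adjusted p up to 0.00034 and 0.017), as did Opa1 with refeeding at ZT2 (up to 0.0265); 22 of 29 comparisons called no member under any alternative. Counts of members called, 2 for fasting at ZT2, 3 for refeeding at ZT2, 1 each at ZT14 and 0 for fasting in RiboTag RNA at ZT2, were otherwise as follows. With the length and GC correction fasting at ZT2 gave 4 (with Fis1 reversed, at -0.22), at ZT14 3, and refeeding at ZT14 0. edgeR's test gave 1 for refeeding at ZT2 and 0 at ZT14. With only the compared groups fasting and refeeding at ZT14 both gave 0. Without the libraries that stand apart fasting at ZT14 gave 2 and in RiboTag RNA at ZT2 1, and without those high in astrocyte markers refeeding at ZT14 gave 0. The replicate block gave 2 for fasting at ZT14 (Ppargc1b joined, limma adjusted p = 0.0299) and 1 in RiboTag RNA at ZT2 (Opa1, 0.0468), but the numbers did not pair the libraries: same-numbered libraries had a median correlation of 0.0012 in sorted cells, -0.03 in RiboTag, 0.03 in the leptin and -0.02 in the ZT5 series. Leaving out 1 library gave 2 to 3 for fasting at ZT2, 2 to 4 for refeeding at ZT2, 0 to 1 for refed against ad libitum at ZT2, 0 to 2 and 0 to 1 for fasting and refeeding at ZT14, 0 to 1 for time in fasted cells, and 0 to 2 for fasting in RiboTag RNA at ZT2. Nrf1 in refed against ad libitum cells at ZT2 was called without ad libitum replicate 6 or refed replicate 5 (0.84, limma adjusted p = 0.0423 and 0.0441), and Mff with fasting at ZT14 without ad libitum replicate 1 or 3 or fasted replicate 5 (0.0226, 0.0472 and 0.0144).

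Counts over all genes moved by more than 1.5 times in RiboTag fasting at ZT2 (1219; 370 with only the compared groups, 1833 without libraries that stand apart, 453 to 2252 leaving out 1) and ZT14 (817; 1583 without those that stand apart), for time in fasted sorted cells (42; 8 to 74), for the refed to ad libitum comparison at ZT14 (56; 104 with the correction, 179 with only the compared groups), for leptin in knockouts at ZT2 (59; 0 with only the compared groups) and, leaving out 1 library, for fasting at ZT14 (2758; 1257 without ad libitum replicate 2 and 1719 without replicate 3), refeeding at ZT14 (1741; 1138 without refed replicate 2) and refed against ad libitum at ZT2 (2648; 1438 without refed replicate 4). Of simulated 2-fold changes 31% were recovered for fasting at ZT2 in sorted cells, 20% at ZT14, 1% in RiboTag RNA at ZT2, 29% for genotype after PBS at ZT2 and 22% at ZT5, which limits what a missing call can say. The simulation changed 100 genes by 2-fold and 100 by 4-fold, where 37.5% of all genes passed for fasting at ZT2 in sorted cells. With fewer changed genes the adjustment is stricter, and no length trend was simulated. These rates therefore need not hold for the tests reported.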
